A study of Mus musculus with 6 samples.

Results

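The 37 genes described here are the protein-coding Hox genes of the uterus, taken from the 37060 genes of the deposited table as every symbol made of Hox, a cluster letter from a to d and a number, with antisense and host transcripts left out. Hoxb13 and Hoxc12 were not analysed here. RNA was sequenced from the uterus of 3 SRC-2d/d mutant and 3 SRC-2f/f control mice on gestation day 5, and the design text says that the mice were different animals. In the usual notation f/f is a pair of alleles flanked by loxP sites, which the controls carry unrecombined, and d/d a pair of deleted alleles. SRC-2, the product of Ncoa2, assists steroid receptors in switching on their target genes. The labels give neither the Cre that made the deletion nor the strain or age of the mice. In published work this allele was deleted by Cre expressed from the progesterone receptor locus, which is active in uterine epithelium, stroma and muscle. The libraries are called mutants 1 to 3 and controls 1 to 3 below.

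Hox genes encode homeodomain transcription factors that give segments of the body axis their identity. In mammals they stand in 4 clusters, HoxA to HoxD, and genes with the same number in different clusters are paralogs. Low numbers lie at the 3' end of a cluster and act in anterior segments, and high numbers lie at the 5' end and act in posterior ones. Along the female reproductive tract the HoxA genes keep this order, with Hoxa9 marking the oviduct, Hoxa10 the uterus, Hoxa11 the uterus and cervix, and Hoxa13 the cervix and vagina. Hoxa10 and Hoxa11 stay active in the adult uterus, where progesterone induces them in the stroma, and female mice lacking either gene have defects of implantation and decidualization.

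The deposited values are gene read counts that were scaled by 1 size factor for each library, and they are called normalized counts here. Mutant libraries held 129905950 to 195782326 reads in genes and control libraries 138811835 to 163196592, and 3 reads, the limit that a count of 0 allows, equal 2.48 to 3.41 normalized counts. Ncoa2 had 7620, 6667 and 7409 normalized counts in mutants 1 to 3, against 13208, 13090 and 14495 in controls 1 to 3. Each mutant was below each control, at 53.2% of the control mean (-0.91, SE 0.20, adjusted p = 0.00953), and which exons were deleted is not given in the labels. Groups were compared with limma on log2(normalized count + 1) over 36154 genes, and a gene was called at a Benjamini-Hochberg adjusted p under 0.05. Differences are log2 differences, mutant minus control, followed by the standard error (SE), and on this scale changes of genes with few reads come out too small. Levels are given as mean ± SD with n = 3 mice per group.

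The Hox genes higher in mutants were all in HoxB, and those lower were genes numbered 8 to 11 of the other 3 clusters. Of the 37 Hox genes 4 rose, against 5.34% of all genes tested, namely Hoxb4, Hoxb6, Hoxb7 and Hoxb8. A further 8 fell, against 4.08% of all genes tested, namely Hoxa9, Hoxa10, Hoxa11, Hoxc11, Hoxd8, Hoxd9, Hoxd10 and Hoxd11. The other 25 were not called, 18 of them with a negative and 7 with a positive difference. By cluster, 3 of 11 HoxA genes fell, with a median difference of -1.09 over the 11. Of 9 HoxB genes 4 rose (median 0.72), of 8 HoxC genes 1 fell (median -0.19) and of 9 HoxD genes 4 fell (median -1.23). The median over all 37 was -0.69, and over all genes tested -0.01. With Hoxc13, which had no read in mutants, at its bound and Hoxd1, which was at or under 3 reads in both groups, left out, the medians were -0.72 over the other 36, -0.19 for HoxC and -1.26 for HoxD. No HoxA, HoxC or HoxD gene was called higher and no HoxB gene lower by limma, edgeR or DESeq2, and these counts were also 0 at an unadjusted p under 0.05 with each tool.

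By paralog number, all 14 genes numbered 9 to 13 had a negative difference, at a median of -1.36, and 7 of them fell. Among these 14, Hoxc9 and Hoxc10 changed sign when 1 library was left out. Of the 23 genes numbered 1 to 8, 11 had a positive and 12 a negative difference, at a median of -0.20 (-0.0635 without Hoxd1), and they hold the 4 genes that rose and 1 that fell, Hoxd8. HoxB genes gave 8 of these 11 positive differences, and Hoxb9 is the only HoxB gene among the 14. The contrast by number is therefore mixed with that by cluster. Each of the 3 genes numbered 11 fell. Number 8 held Hoxb8, which rose, and Hoxd8, which fell. All mutants lay above all controls for 6 Hox genes, against 13.4% of all genes tested, and these are Hoxb2 and Hoxb4 to Hoxb8. All mutants lay below all controls for 13 Hox genes, against 12.1% of all genes tested. All 37 genes passed the filter of a mean of at least 0.5 normalized counts, and 12 of them had a mean under 100.

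**Figure D1:**
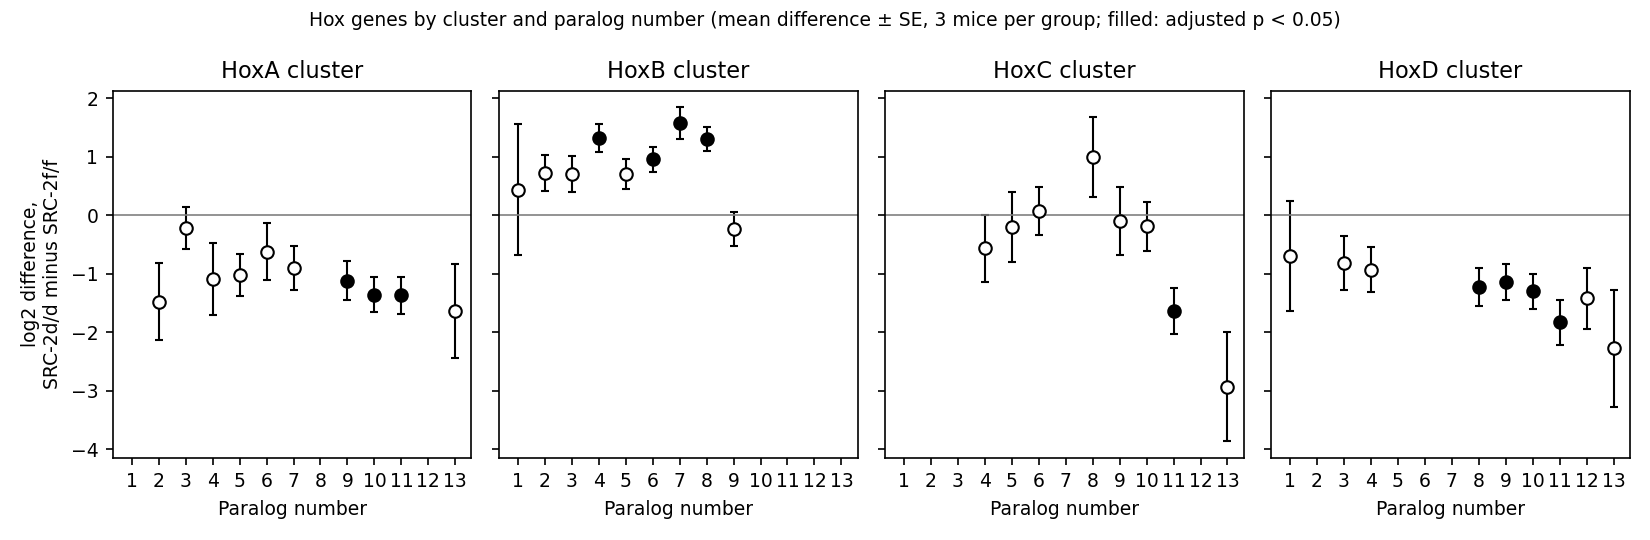
Log2 difference, mutant minus control, of 36 Hox genes (y axis) by paralog number (x axis), with 1 panel per cluster. Points are differences with their SE (limma, 3 mice per group), filled where the adjusted p is under 0.05; the filled points of HoxB lie above 0 and those of HoxA, HoxC and HoxD below it.

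The counts depended on single libraries, more so for genes that fell, and the same held over all genes tested. The 4 genes that rose were 3, 6 and 4 without mutants 1, 2 and 3, and 4, 3 and 3 without controls 1, 2 and 3. The 8 that fell were 3, 9 and 1 without mutants 1, 2 and 3, and 5, 0 and 0 without controls 1, 2 and 3, where limma gave 11 and 12 at an unadjusted p under 0.05 without controls 2 and 3. Over all genes, the 1476 called lower were 819, 2813 and 761 without mutants 1, 2 and 3. Without controls 1, 2 and 3 they were 906, 452 and 315. The 1929 called higher were 1394, 2598 and 1358 without mutants 1, 2 and 3. Without controls 1, 2 and 3 they were 1461, 1093 and 1013. Mutant 2 was the mutant nearest to the controls for 7 of the 8 genes that fell and for each of the 4 that rose. Without it Hoxb3 and Hoxb5 also rose (adjusted p = 0.0492 and 0.0196), with 7.24% of all genes called higher, and Hoxd12 also fell (adjusted p = 0.0490), with 7.84% of all genes called lower. When limma's variance prior had no trend with the mean, none of the 12 calls held (adjusted p of 0.0568 to 0.274), and 5 higher and 13 lower genes had an unadjusted p under 0.05. In the main fit 7 Hox genes were higher and 15 lower at this limit. Over all 36154 genes tested 4104 were higher and 4048 lower at it. For the other fits the count over all genes at this limit is not given. On the recovered reads edgeR called 4 higher and 5 lower, and DESeq2 4 and 11.

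**Figure D2:**
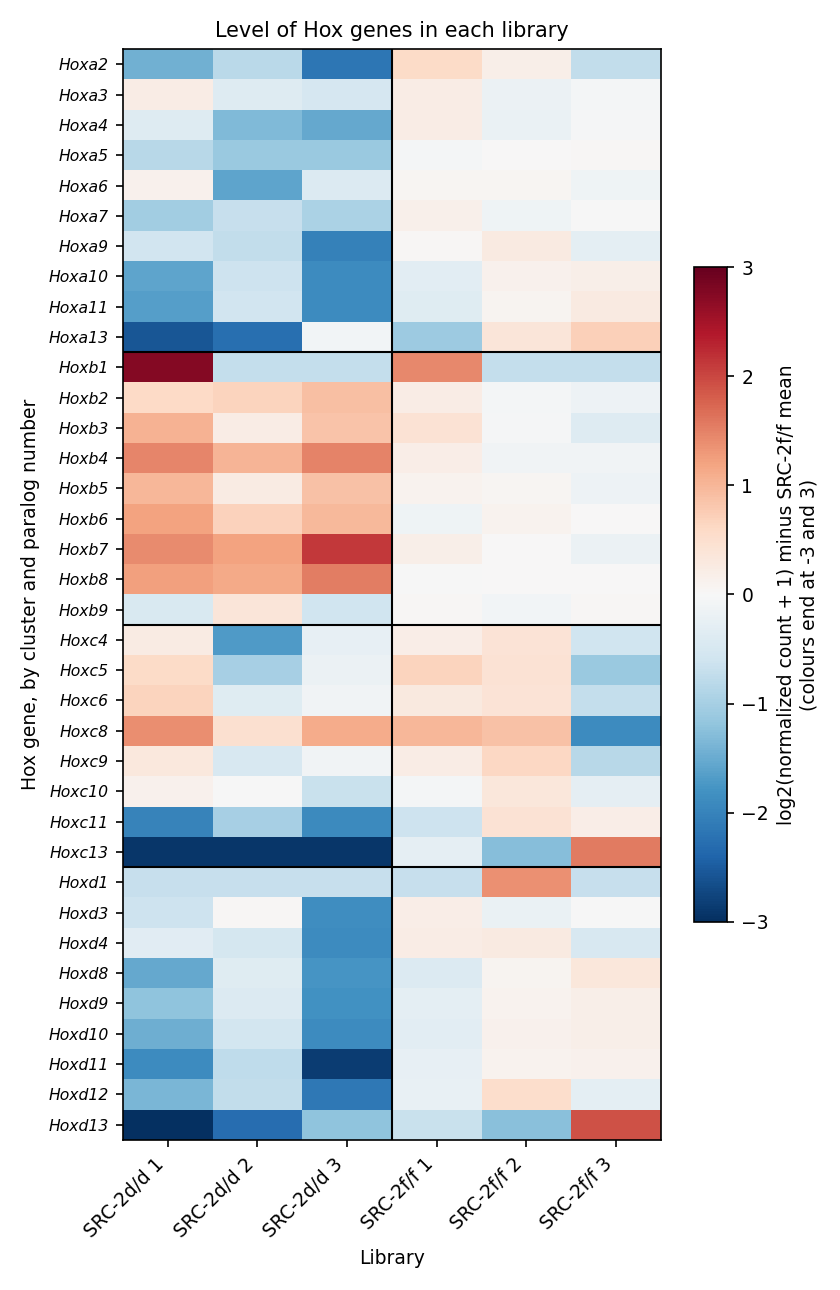
Level of 36 Hox genes (rows) in each library (columns, mutants left of controls), as log2(normalized count + 1) minus the mean of the 3 controls, with colours ending at -3 and 3. Hoxb2 to Hoxb8 are above the control mean in all 3 mutants, and Hoxa9 to Hoxa11 and Hoxd8 to Hoxd12 are below it.

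Of the genes that rose, only Hoxb4 and Hoxb8 had a listed promoter. Upstream sequences of these and of a pair that fell, Hoxa10 and Hoxd10, are shown. They are the 200 bases before the start of Hoxb4 (chr11:96318067-96318266, plus strand), Hoxb8 (chr11:96281705-96281904, plus strand), Hoxa10 (chr6:52234940-52235139, minus strand, the listed start nearer to Hoxa9) and Hoxd10 (chr2:74691691-74691890, plus strand), written 5' to 3', from RefSeq on GRCm38.p6. Capitals mark matches on either strand to short motifs. These are the TATA box TATAAA, the CCAAT box, the GC box GGGCGG, a core of Cdx and posterior Hox sites written TTTATG, the Pbx and Hox site TGATTNAT, the nuclear receptor half-site AGGTCA and the progesterone and glucocorticoid receptor half-site AGAACA, and no matches overlap in these 4 windows.
Hoxb4: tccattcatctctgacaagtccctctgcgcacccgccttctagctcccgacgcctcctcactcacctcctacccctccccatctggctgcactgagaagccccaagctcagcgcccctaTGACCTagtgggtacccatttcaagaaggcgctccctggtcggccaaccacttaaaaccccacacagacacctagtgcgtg
Hoxb8: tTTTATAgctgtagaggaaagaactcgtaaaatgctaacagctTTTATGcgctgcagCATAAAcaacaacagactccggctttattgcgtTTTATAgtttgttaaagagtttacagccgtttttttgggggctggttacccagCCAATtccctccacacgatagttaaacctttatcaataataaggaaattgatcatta
Hoxa10: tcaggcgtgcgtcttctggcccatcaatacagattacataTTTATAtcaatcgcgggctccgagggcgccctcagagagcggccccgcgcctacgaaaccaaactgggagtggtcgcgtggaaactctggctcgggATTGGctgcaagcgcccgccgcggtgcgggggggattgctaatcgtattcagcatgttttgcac
Hoxd10: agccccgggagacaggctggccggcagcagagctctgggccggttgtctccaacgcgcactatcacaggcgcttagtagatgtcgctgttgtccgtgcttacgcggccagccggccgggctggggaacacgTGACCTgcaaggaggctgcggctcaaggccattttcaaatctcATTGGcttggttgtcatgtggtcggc
The window of Hoxb8 holds the TATA box, the Cdx and Hox core and the CCAAT box, that of Hoxa10 the TATA and CCAAT boxes, that of Hoxb4 the AGGTCA half-site, and that of Hoxd10 AGGTCA and the CCAAT box. Shares were counted over the 250 bases before a start, in 24 Hox promoters of 22 genes and in 32851 promoters in all. AGGTCA was found in 6 Hox promoters (25%) and 14.02% of all, and AGAACA in 2 Hox promoters (8.33%) and 16.1% of all. TTTATG was found in 5 Hox promoters (20.8%) and 10.8% of all, TGATTNAT in 2 Hox promoters (8.33%) and 2.83% of all and CCAAT in 14 Hox promoters (58.3%) and 33.9% of all. TATAAA was found in 4 Hox promoters (16.7%) and 12.4% of all, and GGGCGG in 10 Hox promoters (41.7%) and 32.7% of all. The full estrogen response element was in 0 Hox promoters and in 0.0639% of all, and the full progesterone response element, both of which hold a half-site wholly or in part, in 0 and in 0.00913% of all. Hox promoters had a median GC content of 58.6%, against 52.4% over all promoters. A match describes the letters only.

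In the HoxB cluster, Hoxb8 was even within each group. This gene, known from patterning of the spinal cord and from myeloid cells, had 7762, 7198 and 9493 normalized counts in mutants 1 to 3, against 3243, 3309 and 3303 in controls 1 to 3. The groups lay apart, and the controls almost coincided. The means were 8151 ± 1196 in mutants and 3285 ± 36.6 in controls, a 2.48-fold level (1.30, SE 0.21, adjusted p = 0.00116).

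Hoxb7 had 3249, 2804 and 5359 normalized counts in mutants 1 to 3, against 1376, 1230 and 1076 in controls 1 to 3. The groups did not overlap, mutant 3 was the highest, and the level was 3.10-fold (1.58, SE 0.27, adjusted p = 0.00188). Hoxb4, known for expanding blood stem cells, had 3582, 2606 and 3614 normalized counts in mutants 1 to 3, against 1487, 1209 and 1204 in controls 1 to 3. Every mutant was above every control, with mutant 2 the lowest of the mutants, and the level was 2.51-fold (1.32, SE 0.24, adjusted p = 0.00280). The calls of Hoxb4, Hoxb7 and Hoxb8 held without each library in turn.

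Hoxb6 had the highest level of the HoxB genes per kilobase in both groups. It had 16652, 11794 and 14224 normalized counts in mutants 1 to 3, against 6654, 7833 and 7301 in controls 1 to 3. The groups did not overlap, and the level was 1.96-fold (0.96, SE 0.21, adjusted p = 0.0106). The call was lost without mutant 1 (adjusted p = 0.0575), control 2 (0.0510) or control 3 (0.0585).

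The rest of the cluster was not called. Hoxb5 had 2793, 1649 and 2575 normalized counts in mutants 1 to 3, against 1498, 1448 and 1247 in controls 1 to 3 (0.71, SE 0.26, adjusted p = 0.106), and Hoxb2, a hindbrain patterning gene, had 451, 472 and 553 in mutants, against 345, 283 and 269 in controls (0.72, SE 0.30, adjusted p = 0.171). All mutants were above all controls in both, mutant 2 being close to the controls for Hoxb5. Hoxb3 had 1607, 903 and 1396 in mutants, against 1040, 760 and 591 in controls (0.71, SE 0.30, adjusted p = 0.180), so that mutant 2 lay below control 1. Hoxb9, the most 5' HoxB gene analysed here, had 752, 1327 and 682 normalized counts in mutants 1 to 3, against 1056, 982 and 1056 in controls 1 to 3 (-0.23, SE 0.29, adjusted p = 0.700). Its mutants lay on both sides of the controls. Hoxb1, another hindbrain gene, had 9 reads in mutant 1 and 4 in control 1, and 0 in the other libraries.

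**Figure D3:**
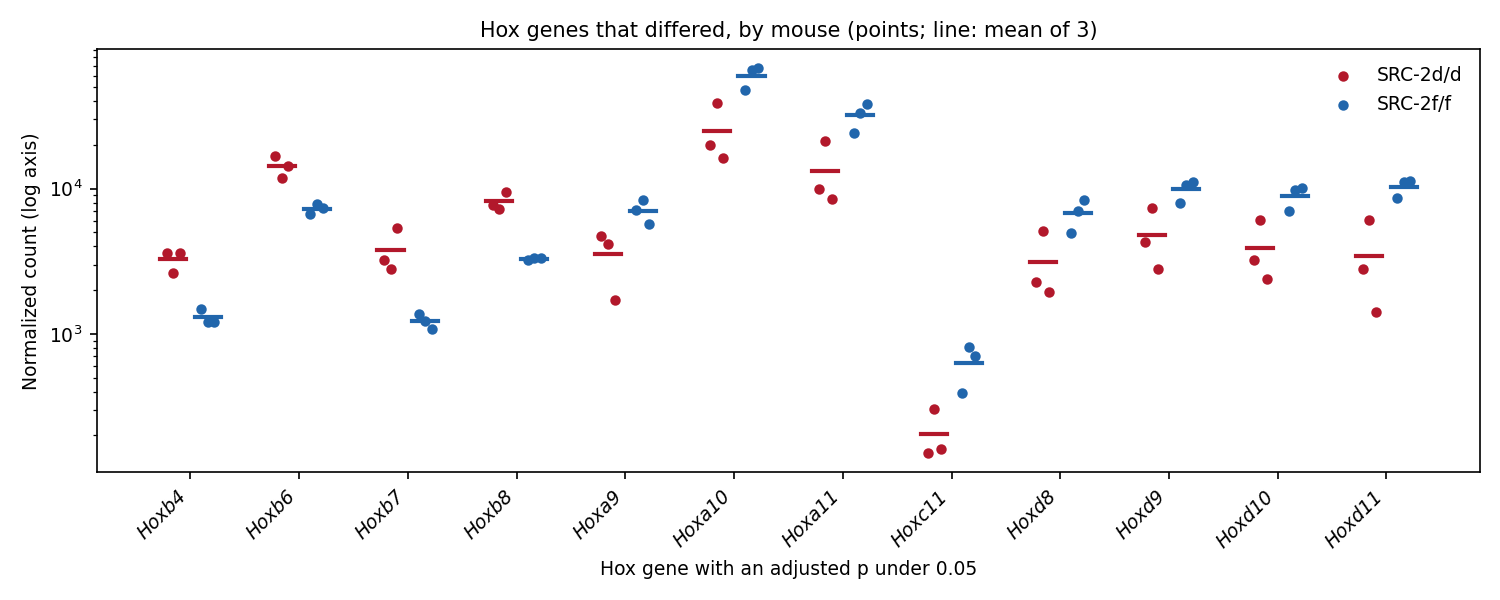
Normalized counts (log axis) of the 12 Hox genes with an adjusted p under 0.05, with 1 point per mouse, mutants left of controls, and a line at the mean of 3. The 4 HoxB genes are higher and the other 8 lower in mutants, and the groups overlap only for Hoxd8, where mutant 2 (5134) lies above control 1 (4959).

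Hoxa10 had 19906, 38736 and 16122 normalized counts in mutants 1 to 3, against 47582, 65019 and 67078 in controls 1 to 3. All mutants were below all controls, mutant 2 being the nearest to them. The means were 24922 ± 12113 in mutants and 59893 ± 10711 in controls, which is 41.6% of the control level (-1.35, SE 0.30, adjusted p = 0.0106), or 30.1% without mutant 2. The call was lost without mutant 3 (adjusted p = 0.0546), control 2 (0.0666) or control 3 (0.0944).

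Hoxa11, its 5' neighbour, had 9924, 21174 and 8500 normalized counts in mutants 1 to 3, against 24258, 33308 and 38039 in controls 1 to 3. The order of the libraries within the mutants was that of Hoxa10, the groups did not overlap, and the level was 41.4% of that in controls (-1.37, SE 0.31, adjusted p = 0.0126). The call was lost without mutant 1 (adjusted p = 0.0564), mutant 3 (0.0636), control 2 (0.0729) or control 3 (0.118). Hoxa9 had 4687, 4185 and 1699 normalized counts in mutants 1 to 3, against 7119, 8360 and 5694 in controls 1 to 3. All mutants were below all controls, with mutant 3 the lowest, and the difference was just past the threshold (-1.11, SE 0.33, adjusted p = 0.04997). Of the 17 alternatives 13 ended this call, among them leaving out mutant 3 (adjusted p = 0.135), control 1 (0.154), control 2 (0.229) or control 3 (0.140).

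Hoxa13 stood low, with 5.68, 7.28 and 36.4 normalized counts in mutants 1 to 3, against 17.6, 50.3 and 64.2 in controls 1 to 3 (-1.64, SE 0.80, adjusted p = 0.252). Mutant 3 overlapped the controls. Of the genes with lower numbers, Hoxa5, known from lung development, had 149, 124 and 122 in mutants, against 257, 272 and 275 in controls (-1.02, SE 0.36, adjusted p = 0.0948), and Hoxa7 had 112, 145 and 121 in mutants, against 258, 215 and 231 in controls (-0.90, SE 0.37, adjusted p = 0.160). The groups lay apart in both, though neither was called. Hoxa2 and Hoxa4 were lower in each mutant than in each control too, at means of 16.7 and 19.8 in mutants, against 47.8 and 40.8 in controls (adjusted p = 0.199 and 0.332). Hoxa3 and Hoxa6 overlapped between the groups, at means of 218 and 111 in mutants and 249 and 154 in controls (adjusted p = 0.772 and 0.509).

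The HoxD genes numbered 8 to 11 all fell. Hoxd11 had 2783, 6084 and 1422 normalized counts in mutants 1 to 3, against 8598, 11109 and 11289 in controls 1 to 3. No mutant reached the controls, and the level was 33.2% of that in controls (-1.83, SE 0.39, adjusted p = 0.00855), or 20.3% without mutant 2. Hoxd10 had 3210, 6038 and 2390 normalized counts in mutants 1 to 3, against 7062, 9718 and 10016 in controls 1 to 3. Again the groups did not overlap, and the level was 43.4% (-1.30, SE 0.30, adjusted p = 0.0148). Both are known from patterning of limbs and the posterior axis. The call of Hoxd11 was lost without control 2 (adjusted p = 0.0546) or control 3 (0.0956) and with robust eBayes (adjusted p = 0.0776), and that of Hoxd10 without mutant 1 (adjusted p = 0.0534), mutant 3 (0.0621), control 2 (0.0923) or control 3 (0.125).

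Hoxd9 had 4268, 7365 and 2791 normalized counts in mutants 1 to 3, against 7941, 10625 and 11160 in controls 1 to 3 (-1.14, SE 0.30, adjusted p = 0.0303). The groups did not overlap. Hoxd8 had 2272, 5134 and 1955 normalized counts in mutants 1 to 3, against 4959, 7026 and 8386 in controls 1 to 3 (-1.23, SE 0.33, adjusted p = 0.0315). Here mutant 2 lay above control 1. The call of Hoxd9 was lost without mutant 1 (adjusted p = 0.0826), mutant 3 (0.113), control 1 (0.0666), control 2 (0.146) or control 3 (0.187), and that of Hoxd8 without mutant 1 (adjusted p = 0.112), mutant 3 (0.129), control 1 (0.0583), control 2 (0.142) or control 3 (0.212). Both were also lost with edgeR (adjusted p = 0.0654 and 0.0741), and that of Hoxd8 with a pseudocount of 0.1 (0.0521).

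At the 3' end, Hoxd4 had 1160, 1022 and 396 in mutants, against 1730, 1773 and 1052 in controls (-0.93, SE 0.38, adjusted p = 0.156), and Hoxd3 had 165, 257 and 68.6 in mutants, against 291, 219 and 251 in controls (-0.81, SE 0.47, adjusted p = 0.339). Neither was called, and mutants overlapped controls in both. These genes share exons in GENCODE M21, over 9.26% of Hoxd3 and 13.2% of Hoxd4, and a gene model named Gm28230 covers 53.1% and 39.1% of their exons, so their counts are uncertain. At the 5' end, Hoxd12 had 45.4, 70.7 and 26.5 normalized counts in mutants 1 to 3, against 102, 173 and 96.7 in controls 1 to 3 (-1.42, SE 0.53, adjusted p = 0.116), with no overlap. Hoxd13, a digit patterning gene, had 0, 1 and 4 reads in mutants and 6, 3 and 36 in controls, and Hoxd1 had 3 reads, all in control 2.

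HoxC genes stood low, and 1 of them fell. Hoxc11 had 151, 305 and 160 normalized counts in mutants 1 to 3, against 391, 815 and 700 in controls 1 to 3. No mutant reached the controls, and the level was 32.3% of that in controls (-1.63, SE 0.39, adjusted p = 0.0168). The call was lost without mutant 1 (adjusted p = 0.0574), mutant 3 (0.0536), control 2 (0.139) or control 3 (0.125). Hoxc13, known from hair and nails, had 0, 0 and 0 reads in mutants 1 to 3 and 6, 2 and 21 in controls 1 to 3. Set against 3 reads for each mutant library, its mean was at least 3.20-fold lower than that of controls, and it was not called (adjusted p = 0.0661). Control 3 held 21 of the 29 control reads, and control 2 (2.14 normalized counts) lay under the mutant bound of 3.00.

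Hoxc4, Hoxc5, Hoxc6, Hoxc8, Hoxc9 and Hoxc10 were not called (adjusted p of 0.443 to 0.948). Their means ran from 48.1 to 290 in mutants and from 54.5 to 278 in controls, and the groups overlapped in each. Control 3 was the lowest control for all 6, most so for Hoxc8, which had 167, 87.4 and 136 in mutants, against 125, 117 and 16.3 in controls. Exons of Hoxc5 and Hoxc10 overlap on the same strand in GENCODE M21, over 5.37% and 8.70% of their lengths, so that reads there are uncertain.

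Per kilobase of exon, the scale on which different genes can be compared, the order of the Hox genes differed between the groups. Lengths are those of GENCODE M21, since no source used here names the authors' annotation. In normalized counts per kilobase, Hoxa10 had the highest mean in both groups, at 7621 ± 3704 in mutants and 18316 ± 3276 in controls. In mutants Hoxb6 had the next mean, 7242 ± 1237, followed by Hoxa11 at 5772 ± 3036. Within mutants, Hoxb6 was above Hoxa10 in mutant 1 (8478 and 6088) and mutant 3 (7242 and 4930) and below it in mutant 2 (6005 and 11846), the mutant nearest to the controls for Hoxa10, so that mutant 2 decides which mean is higher. Hoxb6 was likewise above Hoxa11 in mutants 1 and 3 and below it in mutant 2, while Hoxa10 was above Hoxa11 in all 6 libraries. In controls Hoxa11 came next at 13934 ± 3062, followed by Hoxd10 at 4918 ± 896, Hoxd9 at 4639 ± 807 and Hoxb6 at 3698 ± 301, an order that held within each control. Hoxd9 was close to Hoxd10, at a ratio of 1.13, 1.04 and 0.993 in mutants 1 to 3, against 0.956, 0.930 and 0.947 in controls 1 to 3. Hoxb8 and Hoxb7 took ranks 4 and 5 in mutants, against 9 and 10 in controls.

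Of the summed Hox signal per kilobase, HoxB genes made up 48.4%, 28.3% and 56.4% in mutants 1 to 3, against 15.7%, 12.5% and 11.4% in controls 1 to 3. Every mutant was above every control, mutant 2 being the nearest. HoxA genes made up 33.7%, 48.0% and 30.01% in mutants 1 to 3, against 57.3%, 59.6% and 61.0% in controls 1 to 3, and HoxD genes 16.5%, 22.9% and 12.4% in mutants 1 to 3, against 25.8%, 26.6% and 26.7% in controls 1 to 3. Both shares were lower in every mutant than in every control. HoxC genes made up 0.827% to 1.45% in mutants and 0.849% to 1.32% in controls. The summed signal itself was 34603, 46018 and 30843 in mutants 1 to 3, against 47064, 61183 and 63361 in controls 1 to 3, and no mutant was above any control.

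**Figure D4:**
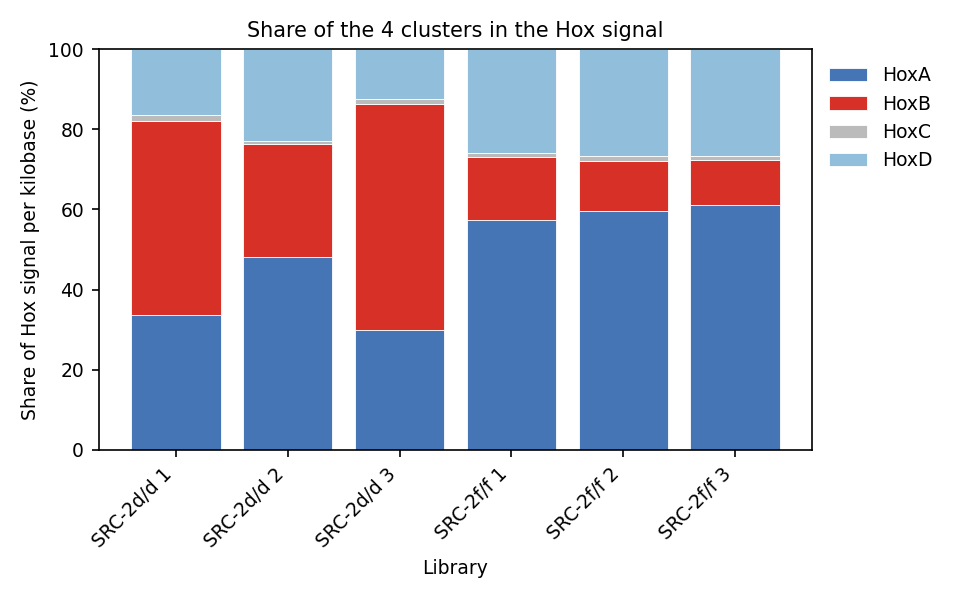
Share of each cluster in the summed Hox signal per kilobase (%), stacked to 100, with 1 bar per library, mutants left of controls. HoxB spans 28.3% to 56.4% in mutants and 11.4% to 15.7% in controls, and HoxA and HoxD are smaller in mutants.

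Ratios of a pair of genes within a library do not depend on how libraries are scaled. They were taken per kilobase for all pairs with the same number and all neighbours in a cluster whose mean was at least 100, and for 4 antisense and sense pairs, 44 ratios in all. With 3 mice per group an exact permutation test cannot give a p below 0.1, so values are given without calls, for pairs picked after their values were seen. The ratio of Hoxb8 to Hoxd8 was 3.56, 1.46 and 5.06 in mutants 1 to 3, against 0.681, 0.490 and 0.410 in controls 1 to 3, so that the paralogs changed places in level. The ratio of Hoxb4 to Hoxd4 was 3.55, 2.93 and 10.5 in mutants and 0.988, 0.784 and 1.31 in controls. As said above, the counts of Hoxd4 are uncertain, and so is the level of this ratio. Within HoxB, the ratio of Hoxb8 to its neighbour Hoxb9 was 10.1, 5.30 and 13.6 in mutants 1 to 3, against 3.00, 3.29 and 3.05 in controls 1 to 3, and every mutant was above every control.

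Hoxa10 and Hoxd10, on chromosomes 6 and 2, kept a narrow ratio. It was 3.44, 3.56 and 3.75 in mutants and 3.74, 3.72 and 3.72 in controls, while Hoxa10 itself ranged from 16122 to 67078 normalized counts. Its SD over 6 libraries, 0.05 on the log2 scale, was the smallest of the 44, followed by that of Hoxa10 to Hoxa11 (0.07), a ratio of 1.40, 1.28 and 1.33 in mutants and 1.37, 1.37 and 1.23 in controls. The spread of a ratio also depends on read depth, and Hoxa10 and Hoxa11 had the highest normalized counts of the Hox genes in controls. There Hoxd10 (8932) was below Hoxd9 (9909) and Hoxd11 (10332), and the ratio of Hoxd10 to Hoxd11 had an SD of 0.38. How far depth sets the spread was not tested. The ratio of Hoxa11 to Hoxd11 was 6.57, 6.41 and 11.01 in mutants and 5.20, 5.52 and 6.21 in controls, higher in every mutant than in every control.

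**Figure D5:**
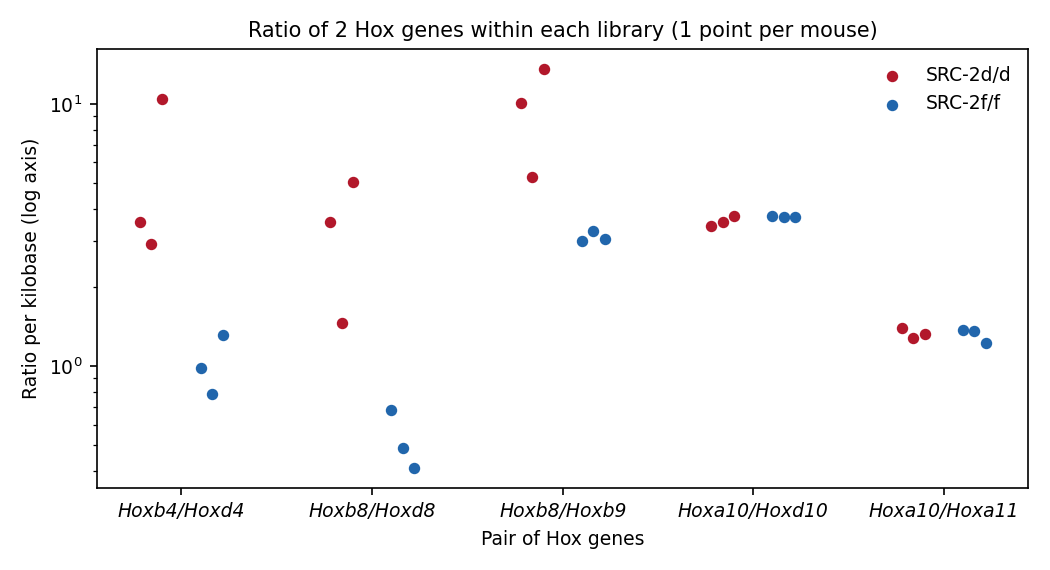
Ratio of a pair of Hox genes per kilobase (log axis) within each library, with 1 point per mouse, mutants left of controls. Hoxb4 to Hoxd4, Hoxb8 to Hoxd8 and Hoxb8 to Hoxb9 are higher in every mutant than in every control, and Hoxa10 to Hoxd10 lies between 3.44 and 3.75 in all 6 libraries.

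Of 14 tested noncoding transcripts of the clusters 1 rose and 1 fell (7.14% each, against 5.34% higher and 4.08% lower over all genes tested). Single calls in each direction are no result about this list. Hoxa11os, which lies antisense to Hoxa11, had 1515, 3283 and 1009 normalized counts in mutants 1 to 3, against 5126, 7235 and 6654 in controls 1 to 3 (-1.87, SE 0.35, adjusted p = 0.00354). Its ratio per kilobase to Hoxa11 was 0.0883 to 0.115 in mutants and 0.130 to 0.162 in controls, lower in every mutant. Hoxb5os, antisense to Hoxb5, had 1371, 850 and 1349 normalized counts in mutants 1 to 3, against 668, 557 and 431 in controls 1 to 3 (1.10, SE 0.30, adjusted p = 0.0315). The groups did not overlap in either. The call of Hoxa11os was lost without control 3 (adjusted p = 0.0550), and that of Hoxb5os without mutant 1 (adjusted p = 0.114), mutant 3 (0.0966), control 1 (0.0519), control 2 (0.131) or control 3 (0.172) and with equal library totals (0.0643). The kit keeps strand, but how the counting used it is not stated, so reads in overlapping exons cannot be assigned with certainty. Such overlap takes up 35.0% of the exons of Hoxa11 and, with Hoxb3os, 52.9% of Hoxb3 and 27.3% of Hoxb2.

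Of 10 TALE cofactors (Pbx, Meis and related genes), which bind DNA together with Hox proteins, 1 fell and 9 were not called (10%, against 4.08% of all genes tested). Pknox2 had 7238, 11173 and 5492 normalized counts in mutants 1 to 3, against 16596, 16589 and 24224 in controls 1 to 3 (-1.30, SE 0.27, adjusted p = 0.00719), a call lost without control 3 (adjusted p = 0.0790). Among 22 Polycomb subunits, which keep Hox genes silent, 1 fell (4.55%). It was Cbx2, with 980, 2196 and 940 normalized counts in mutants 1 to 3, against 3004, 5761 and 8130 in controls 1 to 3 (-2.04, SE 0.38, adjusted p = 0.00342), a call lost without control 3 (adjusted p = 0.0597). The groups lay apart for both genes. Among 16 trithorax and MLL factors, which keep Hox genes active, 1 fell (6.25%). It was Mllt3, with 7022, 9871 and 9373 normalized counts in mutants 1 to 3, against 13272, 15192 and 18657 in controls 1 to 3 (-0.84, SE 0.22, adjusted p = 0.0288), a call lost without mutant 1 (adjusted p = 0.133), control 2 (0.121) or control 3 (0.156). With 1 call each, the shares of the TALE, Polycomb and trithorax lists are no result about these lists. Those of the Polycomb and trithorax lists are also near that of all genes. The median differences were -0.30 for TALE, -0.12 for Polycomb and -0.03 for trithorax genes, against -0.01 over all genes tested.

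Of 11 tested regulators known to act upstream of Hox clusters 4 fell and 7 were not called (36.4% lower, against 4.08% of all genes tested). Gdf11, a ligand that turns on posterior Hox genes in the embryo, had 2897, 4975 and 2367 normalized counts in mutants 1 to 3, against 6504, 6621 and 8868 in controls 1 to 3 (-1.16, SE 0.27, adjusted p = 0.0159). The retinoic acid receptor gene Rarb had 103, 95.7 and 131 in mutants, against 419, 268 and 292 in controls (-1.55, SE 0.38, adjusted p = 0.0189). Nr2f2, which encodes COUP-TFII, had 15638, 26331 and 17925 in mutants, against 30084, 34726 and 40789 in controls (-0.84, SE 0.24, adjusted p = 0.0410), and its relative Nr2f1 had 132, 172 and 127 in mutants, against 308, 265 and 569 in controls (-1.34, SE 0.39, adjusted p = 0.0464). In all 4 the mutants lay below the controls. The call of Gdf11 was lost without mutant 1 (adjusted p = 0.0587), mutant 3 (0.0644), control 1 (0.0556), control 2 (0.0657) or control 3 (0.131) and that of Rarb without control 1 (adjusted p = 0.0814), control 2 (0.0754) or control 3 (0.0773). The call of Nr2f2 was lost without mutant 1 (adjusted p = 0.177), mutant 3 (0.121), control 1 (0.0658), control 2 (0.150) or control 3 (0.191) and that of Nr2f1 without mutant 1 (adjusted p = 0.108), mutant 3 (0.106), control 1 (0.0872), control 2 (0.0947) or control 3 (0.239). With a pseudocount of 0.1 both of these calls were lost too (adjusted p = 0.0568 and 0.0547), and that of Nr2f1 also with no filter (0.0514).

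Of 20 uterine genes linked to Hoxa10 or Hoxa11 in earlier work 5 rose and 3 fell (25% and 15%, against 5.34% and 4.08% of all genes tested). Their median difference was 0.11, against -0.01 over all genes tested. Lif, a cytokine needed for implantation, had 7026, 3737 and 6158 in mutants, against 564, 264 and 564 in controls (3.63, SE 0.33, adjusted p = 1.06e-05), and the surface mucin gene Muc1 had 26583, 9286 and 56321 in mutants, against 2140, 1362 and 2181 in controls (3.70, SE 0.47, adjusted p = 0.000177). Both were far higher in every mutant. Bmp2, a ligand of the decidual stroma, had 1059, 1139 and 1250 in mutants, against 6439, 24214 and 27497 in controls (-3.82, SE 0.41, adjusted p = 4.94e-05), and Hand2, a stromal factor induced by progesterone, had 3911, 8061 and 2525 in mutants, against 15411, 32539 and 38777 in controls (-2.64, SE 0.39, adjusted p = 0.000661). Both were lower in every mutant than in every control. Of the genes named from these lists, Lif and Bmp2 kept their call with eBayes without trend, and the others lost it.

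These are values of whole uterus, where fewer cells of a type and less RNA per cell cannot be told apart, and markers of several cell types moved with the Hox genes. Over all genes tested 5.34% rose and 4.08% fell. Of 12 luminal epithelial markers 12 rose (summed level 378477 to 760347 in mutants and 93709 to 101839 in controls). Of 11 stromal markers 4 fell (1175800 to 2366940 in mutants and 2157130 to 2990440 in controls), and of 8 endothelial markers 6 fell (52222 to 109257 in mutants and 131283 to 208596 in controls). Of 9 myometrial markers 1 rose and 1 fell (425158 to 561550 in mutants and 673240 to 728213 in controls). Of 9 tested decidual markers 1 rose and 6 fell (55665 to 77603 in mutants and 110007 to 270354 in controls), and of 9 gland markers 2 rose and 5 fell (14447 to 20416 in mutants and 124439 to 316012 in controls). Of 9 tested squamous markers of cervix and vagina 5 rose (3205 to 6022 in mutants and 1393 to 1483 in controls), of 6 oviduct markers 3 rose and 2 fell (44532 to 60585 in mutants and 32760 to 45584 in controls), and of 10 tested embryo and trophoblast markers 1 rose (1654 to 3820 in mutants and 2009 to 4157 in controls). Of 9 immune and 6 adipose markers limma called 0, with 2 immune markers higher and 0 adipose markers at an unadjusted p under 0.05 (36861 to 50461 in mutants and 30271 to 39716 in controls for immune markers and 1580 to 12461 in mutants and 259 to 11182 in controls for adipose markers). At that unadjusted limit limma gave 4104 higher and 4048 lower of all 36154 genes tested. Single calls in a direction, as in the myometrial and the embryo and trophoblast lists, are no result about those lists. No marker in the table was at 0 in all libraries. Nr2f2 and Hand2, named above, are also among the stromal markers that fell, and Bmp2 is among the decidual ones, so the lists are not independent. The part of these cell types in the Hox differences was not tested.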

How the data were processed

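Libraries of uterine RNA were made with a stranded mRNA kit, per the labels' protocols. The submitters' processing notes name HISAT2, HTSeq and DESeq, while versions, genome build, annotation and strand setting appear in no source used here. The deposited table is titled FPKM, yet every value (100%) is a whole multiple of 1 step per library within 1e-06 of a read. It is therefore a signal that the authors made from gene counts and 1 size factor per library, and whole reads were recovered from it.

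The 36154 genes averaging at least 0.5 were tested with limma 3.58.1 in R 4.3.3 (lmFit and trended eBayes on log2(value + 1), genotype as the only term), with adjustment over all of them. The design was written for values as deposited and was kept. Each p-value rests on 3 mice per group, with the variance of each gene drawn toward a trend fitted over all genes. It therefore does not measure the gene's own spread over mice alone. The code of the fits was checked on simulated counts that gave all genes the same dispersion, which says nothing about the calls made here. Alternatives were pseudocounts of 0.1 and 0.5, no filter, a minimum mean of 10, equal library totals, quantile normalization, eBayes without trend, robust eBayes, a replicate block, edgeR 4.0.16 and DESeq2 1.42.0 on recovered reads, and each library left out. All Hox genes but 1, which enters counts, medians and sums only, are named; other lists were named by their called members with the smallest adjusted p (at most 4), or by the pair with the smallest p where none was called. Members and lists were chosen with earlier results of these data known. Of the 24 RefSeq promoter starts of Hox genes, 20 stand in a GENCODE M21 transcript.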

Additional observations from a re-analysis of the deposited data

How the results depend on the processing

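The number of Hox genes called higher (4) was 0 with eBayes without trend and 3 to 6 when 1 library was left out. The number called lower (8) was 0 with eBayes without trend, 5 with edgeR and 0 to 9 when 1 library was left out. The other alternatives called 4 higher and 6 to 11 lower. The median difference of the Hox genes (-0.69) was -0.82 with pseudocounts of both 0.1 and 0.5 and -0.92 to -0.65 when 1 library was left out. Over the 33 Hox genes that edgeR tested it was -0.47, against -0.62 by limma over the 33 with a mean of at least 10. The value of -0.69 is that of Hoxd1, which had 3 reads. With pseudocounts of 0.1 and 0.5 Hoxd1 was at -1.68 and -0.96, and Hoxd3 became the median gene. The difference of Ncoa2 stayed at -0.91 with eBayes without trend (adjusted p = 0.119) and was -0.95 to -0.85 when 1 library was left out, not called without control 2 (adjusted p = 0.0583) or control 3 (0.0585). Over all genes, 1929 were called higher and 1476 lower, against 683 and 315 with eBayes without trend, 1815 and 1057 with edgeR and 2544 and 1846 with DESeq2 on recovered reads, and 1013 to 2598 and 315 to 2813 when 1 library was left out. No called Hox gene changed direction in these alternatives. Of those not called, Hoxc6 was -0.0432 with quantile normalization, against 0.07. Leaving out 1 library gave log2 differences of both signs, -0.72 to 1.16 for Hoxb1, -0.97 to 0.00247 for Hoxc4, -0.75 to 0.21 for Hoxc5, -0.28 to 0.28 for Hoxc6, -0.52 to 0.21 for Hoxc9 and -0.35 to 0.0621 for Hoxc10. The cause was not tested. Deviations of mutants and controls with the same number correlated at 0.376, 0.0146 and 0.0274 across genes, and those with different numbers at -0.408 to 0.341. As deviations from means of only 3 libraries, they cannot show whether the numbers pair the mice. With the replicate block, 4 Hox genes were called higher and 9 lower, with a median of -0.69, and of the called genes named from other lists 1, Nr2f1, lost its call (adjusted p = 0.0557). Depth limits what can be said of Hoxa13, Hoxb1, Hoxc13, Hoxd1 and Hoxd13.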

Other observations

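Of 4 tested genes beside the HoxA cluster 2 rose, while the called HoxA genes fell (over all genes tested 5.34% rose and 4.08% fell). Skap2, an adaptor gene of immune cells past the 3' end of HoxA, had 7375, 7720 and 11643 normalized counts in mutants 1 to 3, against 3737, 2787 and 2802 in controls 1 to 3 (1.50, SE 0.24, adjusted p = 0.00115 by limma), a call that held without each library in turn. Snx10, further out on that side, had 6559, 7305 and 12938 in mutants, against 4278, 3987 and 4303 in controls (1.03, SE 0.26, adjusted p = 0.0214), a call lost without mutant 3 (adjusted p = 0.0647), control 1 (0.0755), control 2 (0.115) or control 3 (0.108). In both, every mutant was above every control, and neither call held with eBayes without trend (adjusted p = 0.0688 and 0.189). Of 5 tested genes beside HoxB 1 fell, namely Ttll6, with 29.5, 10.4 and 13.2 in mutants, against 275, 71.6 and 84.5 in controls (-2.81, SE 0.66, adjusted p = 0.0151), a call lost without control 1 (adjusted p = 0.0876) or control 3 (0.0637) and with eBayes without trend (0.0925). A single call is no result about the genes beside HoxB. At an unadjusted p under 0.05 limma gave 4104 higher and 4048 lower of all 36154 genes tested. Of 6 genes beside HoxC and 5 beside HoxD limma called 0, with 1 higher and 1 lower beside HoxC and 1 higher beside HoxD at an unadjusted p under 0.05. Those with the smallest p were Hnrnpa1 (-0.67, limma adjusted p = 0.147) and Smug1 (0.50, limma adjusted p = 0.211) beside HoxC, and Nfe2l2 (0.57, limma adjusted p = 0.117) and Evx2 beside HoxD. Evx2 had 0, 0 and 0 normalized counts in mutants 1 to 3, against 0, 5.35 and 4.07 in controls 1 to 3, where the mean of 3.14 is about what 3 reads give, so no difference is given (adjusted p = 0.338 by limma).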
